A study of Mus musculus with 9 samples.

Results

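Optineurin (gene Optn) and 9 further genes of selective autophagy were followed across sorted mouse spermatogonia. They were taken by symbol from a table of 23813 entries. The set held 5 cargo receptor genes (Optn, Sqstm1, Nbr1, Calcoco1 and Tax1bp1), the kinase gene Tbk1, and 4 genes of the ATG8 family of autophagosome membrane proteins (Map1lc3a, Map1lc3b, Gabarap and Gabarapl2). Each of the 10 had 1 entry, and all 10 were among the 11142 genes that reached 1 FPKM in at least 3 of the 9 libraries. FPKM are fragments scaled by the length of the transcript and by the number of mapped fragments in the library, so levels can be compared between genes. Optn had been seen to differ between the sorted fractions before the set was drawn up around it, so the levels and differences of the 10 genes are given below as a description, without a test.

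All 9 libraries came from male LT-11B6 mice, which carry an Id4-eGfp transgene on a C57BL/6 background and were used at postnatal day 6. Id4 encodes an inhibitor of DNA binding whose reporter marks undifferentiated spermatogonia, the germ cells that include the stem cells of the testis. The TSPAN8-high group (3 libraries) was the 1/3 of these cells with the strongest antibody staining for the surface tetraspanin TSPAN8, the TSPAN8-low group (3 libraries) the 1/3 with the weakest, and the all ID4-EGFP+ group (3 libraries) was sorted on the reporter alone. Cells of all 3 groups carried the transgene, whose fluorescence follows Id4 control, and were sorted as positive for it. The labels do not say whether a library pooled several pups.

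The sort could be read in the transcripts. Tspan8 averaged 34.0 ± 8.41 FPKM in TSPAN8-high, 9.73 ± 2.71 in TSPAN8-low and 15.2 ± 1.39 in all ID4-EGFP+ cells, and Id4 averaged 67.2 ± 7.17, 26.2 ± 8.14 and 35.6 ± 4.34 FPKM in the same groups (mean ± SD, n = 3 each). All 7 germ cell markers examined passed the low-value filter in these cells, and their summed level was 3293 to 3908 FPKM in TSPAN8-high, 3101 to 3682 in TSPAN8-low and 2943 to 3462 in all ID4-EGFP+ libraries. Between 10734 and 11155 entries per library reached 1 FPKM. The number of reads behind a value is unknown, so no counting interval is given. Relative depth, estimated from the lowest values against all ID4-EGFP+ replicate 1, was 1.012 to 1.05 in TSPAN8-high, 0.856 to 0.945 in TSPAN8-low and 0.915 to 1.03 in all ID4-EGFP+ libraries. The TSPAN8-high libraries were thus estimated as deeper than every TSPAN8-low library, and the part of depth in the differences below was not tested.

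Selective autophagy carries chosen cargo, such as ubiquitin-tagged protein aggregates, damaged mitochondria or invading bacteria, to the lysosome. Cargo receptors bind the cargo with one part and lipid-anchored ATG8 proteins on the growing membrane with another, which ties the cargo to the membrane. The kinase TBK1 phosphorylates optineurin and other receptors and strengthens this binding. In the mouse testis, loss of core autophagy genes disturbs the shaping of the sperm head. Transcript levels do not measure the flow of cargo through the pathway.

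Optn differed most between the fractions among the 10 genes. Optineurin binds ubiquitin chains and ATG8 proteins and is known for its part in the removal of damaged mitochondria. Its level was 17.9, 25.8 and 27.6 FPKM in the TSPAN8-high libraries, 4.58, 7.59 and 6.90 FPKM in the TSPAN8-low libraries and 11.6, 16.6 and 16.0 FPKM in the all ID4-EGFP+ libraries (replicates 1, 2 and 3 in each). The lowest TSPAN8-high library lay above every all ID4-EGFP+ library, and the lowest all ID4-EGFP+ library lay above every TSPAN8-low library. The means were 23.8 ± 5.18, 6.36 ± 1.58 and 14.7 ± 2.70 FPKM for TSPAN8-high, TSPAN8-low and all ID4-EGFP+ cells, so the mean in TSPAN8-high was 3.74 times that in TSPAN8-low. Within replicate numbers 1, 2 and 3 the TSPAN8-high level was 3.90, 3.40 and 3.996 times the TSPAN8-low level. On the log2(FPKM + 1) scale the difference, TSPAN8-high minus TSPAN8-low, was 1.75 (SE 0.22), rank 8 of the 11142 genes when ordered from the most positive difference. In sorted pools such as these, fewer cells that express a gene and less of its RNA per cell cannot be told apart.

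**Figure D1:**
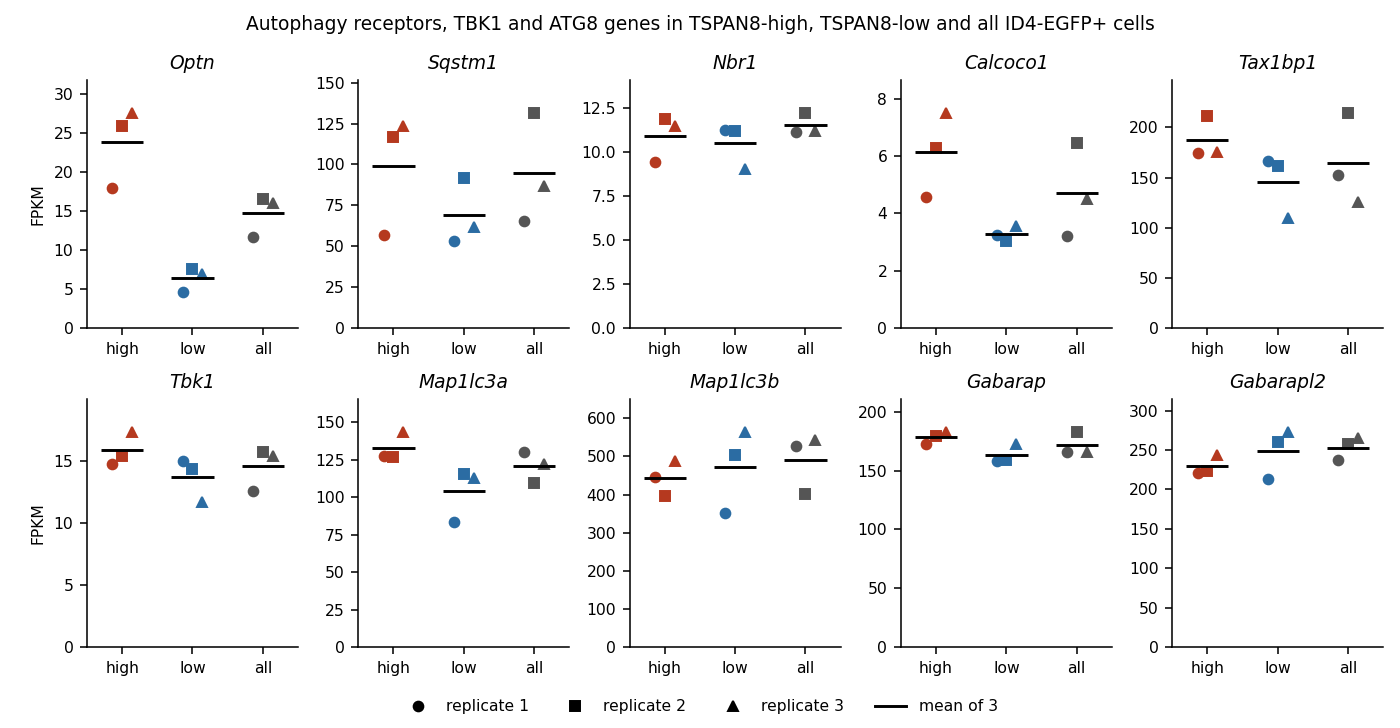
FPKM of the 10 genes in each library (vertical axes, each starting at 0), with TSPAN8-high (high), TSPAN8-low (low) and all ID4-EGFP+ (all) libraries from left to right. Each symbol is 1 library, its shape gives the replicate number, and the black line is the mean of 3 libraries. Optn separates the 3 groups without overlap, from 17.9 to 27.6 FPKM in TSPAN8-high, 4.58 to 7.59 in TSPAN8-low and 11.6 to 16.6 in all ID4-EGFP+ libraries, while the other 9 genes overlap between all ID4-EGFP+ libraries and each fraction.

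Calcoco1 showed the next largest difference. Its product is a receptor for the turnover of endoplasmic reticulum and Golgi membranes. Calcoco1 stood at 4.58, 6.29 and 7.51 FPKM in TSPAN8-high, at 3.23, 3.03 and 3.56 FPKM in TSPAN8-low and at 3.19, 6.45 and 4.51 FPKM in all ID4-EGFP+ libraries. Every TSPAN8-high library was above every TSPAN8-low library, and the all ID4-EGFP+ libraries spread over most of the range of both. The log2 difference of TSPAN8-high from TSPAN8-low was 0.72 (SE 0.21), with group means of 6.13 ± 1.48 and 3.27 ± 0.264 FPKM.

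The promoters of these genes are shown from 250 bases before to 50 bases after the annotated start, for Optn and Calcoco1 because they had the largest differences and for Tbk1 and Map1lc3b because they hold motifs that were searched. Sequences and coordinates are those of RefSeq on GRCm38.p6, a later build than the mm9 named in the submitters' processing notes. All genes but Map1lc3a, 9 of the 10, were matched, with 11 promoters in all. Optn lies on the minus strand (chr2:5064068-5064367), as do Calcoco1 (chr15:102722129-102722428) and Tbk1 (chr10:121586745-121587044), and Map1lc3b lies on the plus strand (chr8:121590188-121590487). Capitals mark matches, on either strand, to CACGTG (the E-box core bound by TFEB and TFE3), TGACNNNGC (the core of the antioxidant response element) or CCGGAA (the core of ETS factor sites).
Optn: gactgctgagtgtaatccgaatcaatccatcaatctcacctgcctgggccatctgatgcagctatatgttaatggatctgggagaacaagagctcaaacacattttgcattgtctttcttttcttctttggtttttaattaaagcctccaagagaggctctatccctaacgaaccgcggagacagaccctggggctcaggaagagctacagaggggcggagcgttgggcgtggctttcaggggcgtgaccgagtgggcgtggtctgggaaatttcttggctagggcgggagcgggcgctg
Calcoco1: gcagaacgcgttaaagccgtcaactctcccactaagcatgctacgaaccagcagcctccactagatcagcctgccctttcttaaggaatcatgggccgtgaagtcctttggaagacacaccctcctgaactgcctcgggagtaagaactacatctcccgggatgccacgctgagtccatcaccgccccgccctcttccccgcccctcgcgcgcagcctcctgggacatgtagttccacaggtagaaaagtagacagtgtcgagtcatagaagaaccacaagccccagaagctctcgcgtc
Tbk1: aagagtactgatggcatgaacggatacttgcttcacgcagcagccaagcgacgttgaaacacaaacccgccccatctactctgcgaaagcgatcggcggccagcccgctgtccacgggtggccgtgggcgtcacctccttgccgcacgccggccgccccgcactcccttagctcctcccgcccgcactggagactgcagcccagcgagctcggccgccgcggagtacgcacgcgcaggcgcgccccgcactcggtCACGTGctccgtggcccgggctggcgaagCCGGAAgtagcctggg
Map1lc3b: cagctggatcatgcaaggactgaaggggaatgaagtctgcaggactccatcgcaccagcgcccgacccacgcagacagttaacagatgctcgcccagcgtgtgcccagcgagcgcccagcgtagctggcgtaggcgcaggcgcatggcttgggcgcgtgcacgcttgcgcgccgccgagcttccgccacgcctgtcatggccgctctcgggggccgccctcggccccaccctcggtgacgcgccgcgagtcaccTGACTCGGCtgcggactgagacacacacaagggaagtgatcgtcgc
The motif letters did not overlap one another in these promoters. CACGTG was present in 1 of the 11 promoters, that of Tbk1, against 7.15% of the 32851 promoters in the table. TGACNNNGC was present in 2 of 11, those of Map1lc3b and Tax1bp1, against 12.4% of all promoters, and CCGGAA in 2 of 11, those of Tbk1 and Gabarapl2, against 14.9%. The windows of Optn and Calcoco1 held none of the 3 sets of letters.

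The remaining receptors overlapped more or differed less between the groups. Sqstm1 encodes p62, which gathers ubiquitin-tagged proteins into bodies and also binds KEAP1. Sqstm1 stood at 57.1, 117 and 124 FPKM in TSPAN8-high, at 53.5, 91.5 and 61.8 FPKM in TSPAN8-low and at 65.4, 132 and 87.1 FPKM in all ID4-EGFP+ libraries. Replicate 1 was the lowest of its group in each of the 3 groups, and the groups overlapped. The log2 difference was 0.48 with an SE of 0.32. The ratio of TSPAN8-high to TSPAN8-low was 1.07, 1.27 and 2.00 within replicate numbers 1, 2 and 3. The exons of Sqstm1 share 580 bases with those of Mrnip on the opposite strand in GENCODE M21, the kit does not mark strand, and the entry under an older symbol of Mrnip (3010026O09Rik) stood at 43.0 to 61.8 FPKM, so reads of the 2 genes cannot be told apart there. Exon overlaps on the opposite strand were shorter for Optn (73 bases, with 4930551O13Rik), Tax1bp1 (160 bases, with Gm43966) and Map1lc3b (58 bases, with Zcchc14, which stood at 2.56 to 3.38 FPKM).

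Tax1bp1 was the most abundant receptor transcript of the set. Its product is a ubiquitin-binding receptor that also limits inflammatory signalling. Tax1bp1 stood at 175, 211 and 175 FPKM in TSPAN8-high, at 167, 162 and 109.7 FPKM in TSPAN8-low and at 152, 215 and 126 FPKM in all ID4-EGFP+ libraries. The TSPAN8-high libraries were all above the TSPAN8-low libraries, by a gap between 167 and 175 FPKM that is smaller than the SD of either group (20.9 and 31.6 FPKM), and the log2 difference was 0.37 (SE 0.22). Nbr1, whose product works with p62 on protein aggregates and peroxisomes, averaged 10.9 ± 1.30, 10.5 ± 1.27 and 11.5 ± 0.625 FPKM in TSPAN8-high, TSPAN8-low and all ID4-EGFP+ cells. Its groups overlapped fully, with a log2 difference of 0.05 (SE 0.15).

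Tbk1, the kinase that acts on optineurin, did not follow the pattern of Optn. It stood at 14.8, 15.5 and 17.4 FPKM in TSPAN8-high, at 15.0, 14.4 and 11.7 FPKM in TSPAN8-low and at 12.6, 15.8 and 15.4 FPKM in all ID4-EGFP+ libraries. The groups overlapped, and the log2 difference was 0.20 (SE 0.15). Because Optn differed and Tbk1 differed little, the ratio of Tbk1 to Optn FPKM was 0.686 ± 0.125 in TSPAN8-high, 2.29 ± 0.865 in TSPAN8-low and 1.00 ± 0.0731 in all ID4-EGFP+ cells.

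Map1lc3b was the most abundant transcript of the set. This gene, for the LC3 protein most used as a marker of autophagosomes, stood at 445, 397 and 488 FPKM in TSPAN8-high, at 351, 503 and 565 FPKM in TSPAN8-low and at 527, 402 and 543 FPKM in all ID4-EGFP+ libraries. The TSPAN8-low libraries reached both below and above the TSPAN8-high ones, and the log2 difference was -0.07 (SE 0.19). Map1lc3a, for the related LC3A, stood at 127, 127 and 143 FPKM in TSPAN8-high, at 83.6, 115 and 113 FPKM in TSPAN8-low and at 129.8, 109.5 and 122 FPKM in all ID4-EGFP+ libraries. All TSPAN8-high libraries were above all TSPAN8-low libraries, with a log2 difference of 0.36 (SE 0.16). Gabarap and Gabarapl2 encode the other branch of the family, which acts later, when the autophagosome closes and fuses. Gabarap averaged 178 ± 5.07 FPKM in TSPAN8-high, 163 ± 7.91 in TSPAN8-low and 171 ± 9.56 in all ID4-EGFP+ cells, and its TSPAN8-high libraries (173.0 to 183 FPKM) lay just above its TSPAN8-low libraries (158 to 172.5 FPKM). Gabarapl2 averaged 229.8 ± 12.5, 249 ± 31.5 and 253 ± 14.3 FPKM in TSPAN8-high, TSPAN8-low and all ID4-EGFP+ cells, with overlap. The level of Gabarapl2 is uncertain, since 3 processed pseudogenes match its transcript at 95% identity or more over at least 200 bases and reads can be split between them.

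Relative levels among the 5 receptor genes and among the 4 ATG8 genes of the set were described by shares of their summed FPKM. These are not shares of whole families. The 18 other cargo receptor genes listed summed to between 893 and 1070 FPKM per library, and the ATG8 gene Gabarapl1 stood at 7.21 to 14.4 FPKM. Optn made up 7.23% ± 0.650 of the 5 receptor transcripts in TSPAN8-high, 2.76% ± 0.850 in TSPAN8-low and 5.21% ± 1.16 in all ID4-EGFP+ cells, and the TSPAN8-high libraries (6.77% to 7.98%) did not overlap the TSPAN8-low libraries (1.91% to 3.61%). Tax1bp1 took the largest share in every library, between 50.8% and 69.7%. In the ATG8 sum, Map1lc3a made up 13.2%, 13.7% and 13.5% in TSPAN8-high, 10.4%, 11.1% and 10.0% in TSPAN8-low and 12.2%, 11.5% and 11.2% in all ID4-EGFP+ libraries. This share was higher in every TSPAN8-high library than in any other library. The ratio of Map1lc3b to Map1lc3a was 3.50, 3.12 and 3.40 in TSPAN8-high, 4.20, 4.36 and 5.02 in TSPAN8-low and 4.06, 3.67 and 4.44 in all ID4-EGFP+ libraries. The ATG8 sum itself was 984 ± 67.9 FPKM in TSPAN8-high, 989 ± 164 in TSPAN8-low and 1036 ± 75.2 in all ID4-EGFP+ cells, with overlap between all groups. These shares were chosen after the values were seen.

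**Figure D2:**
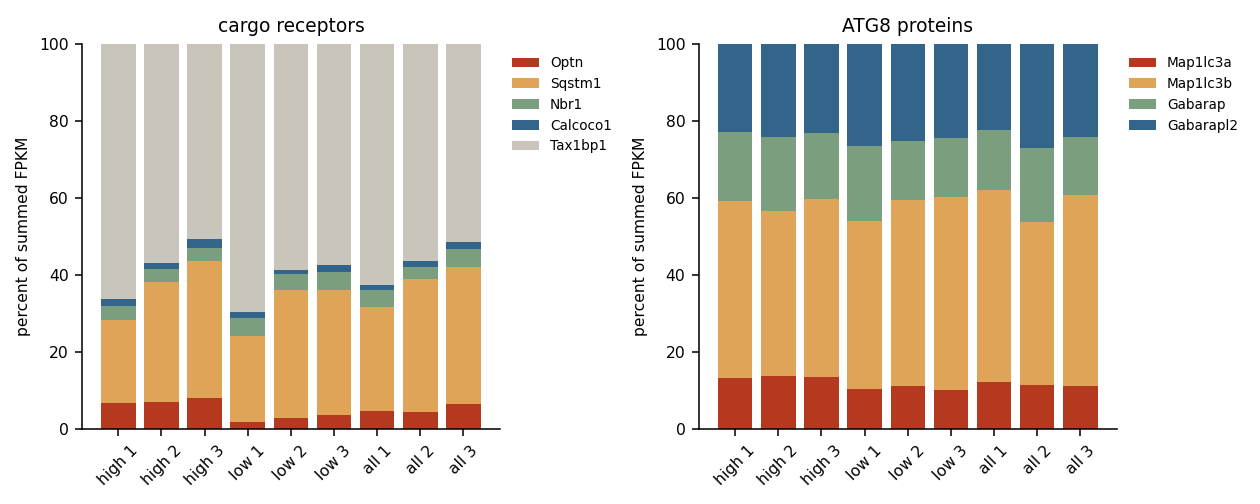
Percent of the summed FPKM (vertical axes) taken by each of the 5 receptor genes (left) and the 4 ATG8 genes (right). Each stacked bar is 1 library, with TSPAN8-high (high), TSPAN8-low (low) and all ID4-EGFP+ (all) replicates from left to right. The Optn share lies between 6.77% and 7.98% in TSPAN8-high and between 1.91% and 3.61% in TSPAN8-low libraries.

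The 10 genes were also set beside all tested genes, as a description from which nothing is read, because Optn was chosen from the contrast between the fractions. Values of 5 of the 10 genes (Optn, Calcoco1, Tax1bp1, Map1lc3a and Gabarap) lay wholly higher in TSPAN8-high against TSPAN8-low, where this held for 15.9% of all tested genes, and values of 0 of the 10 lay wholly lower, where this held for 9.71%. The median log2 difference was 0.28 over the 10 genes and 0.05 over all tested genes. Over 19 alternative ways of fitting, 8 of the 10 genes kept the sign of their estimate, and those of Nbr1 (-0.08 to 0.19) and Map1lc3b (-0.27 to 0.07) did not. Optn lay between 1.56 and 1.94. Some of the alternatives, such as the block and leaving out an all ID4-EGFP+ library, cannot change these estimates.

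**Figure D3:**
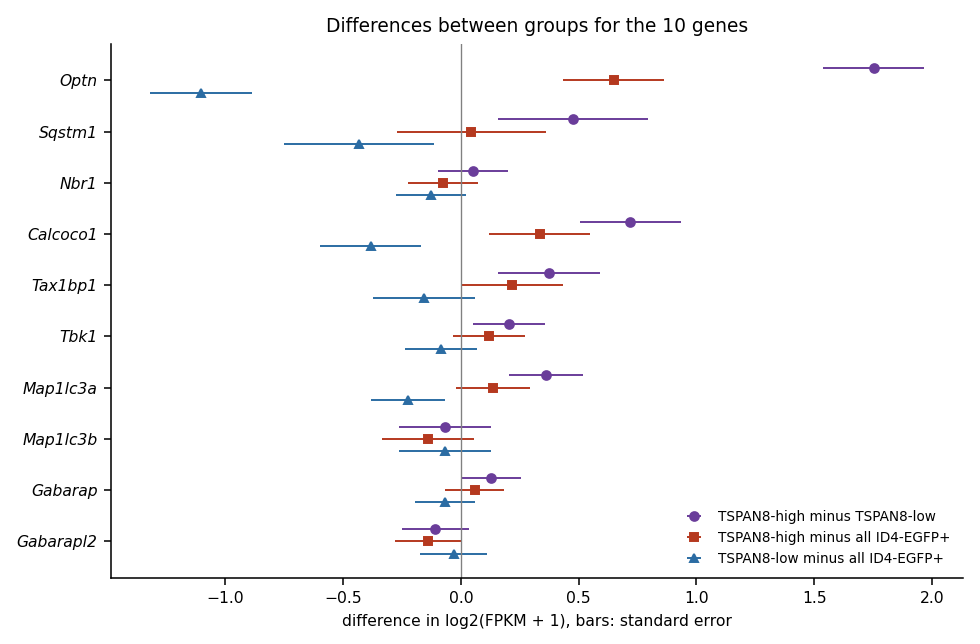
Log2 difference of each of the 10 genes on the log2(FPKM + 1) scale (horizontal axis) for the 3 comparisons named in the plot. Points are estimates and bars are 1 SE from the limma fit without the replicate number as a block. Optn stands apart at 1.75 for TSPAN8-high minus TSPAN8-low, and the other 9 genes lie between -0.11 and 0.72.

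Both comparisons with all ID4-EGFP+ cells share the same 3 control libraries and are given side by side. The log2 difference of Optn was 0.65 for TSPAN8-high minus all ID4-EGFP+ and -1.10 for TSPAN8-low minus all ID4-EGFP+ (SE 0.22 each). Optn was the only 1 of the 10 whose values did not overlap in these comparisons, higher in TSPAN8-high where this held for 6.79% of all genes and lower in TSPAN8-low where this held for 10.8%. Calcoco1 had log2 differences of 0.34 and -0.38 in the same comparisons (SE 0.21), with overlapping values. The estimates of all 10 genes were below 0 in TSPAN8-low minus all ID4-EGFP+, as were those of 6949 of the 11142 genes. Among all tested genes, limma called 0.144% in TSPAN8-high against all ID4-EGFP+ (3.09% with the replicate number as a block in the fit) and 0% in TSPAN8-low against all ID4-EGFP+ (910 genes at an unadjusted p under 0.05, and 0.0449% with the block), at a Benjamini-Hochberg adjusted p under 0.05.

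Other genes of the pathway were drawn from 11 lists, of which 122 genes were in the table and 104 were tested. The test was limma on log2(FPKM + 1) over the 9 libraries, with a threshold of a Benjamini-Hochberg adjusted p under 0.05 over all 11142 genes. TSPAN8-high against TSPAN8-low, 3 of the 104 rose and 4 fell, which is 6.73% against 5.56% of all tested genes (3.41% higher and 2.15% lower). Scaling the libraries to a common median turned the split over all genes from 380 higher and 239 lower into 255 higher and 360 lower. The genes that rose were Wdfy3, for a scaffold that brings protein aggregates to the ATG8 machinery (4.18 ± 0.549 FPKM in TSPAN8-high, 2.42 ± 0.332 in TSPAN8-low, log2 difference 0.60, SE 0.15, adjusted p = 0.0350), Epg5, for a tether between autophagosomes and lysosomes (2.10 ± 0.223 and 1.10 ± 0.222 FPKM, 0.56, adjusted p = 0.0377), and Usp15, for a deubiquitinase that opposes the ubiquitin ligase parkin (55.6 ± 4.81 and 33.8 ± 0.989 FPKM, 0.70, adjusted p = 0.0469). Bnip3, for a receptor in the outer mitochondrial membrane that is induced by low oxygen, fell to 114, 82.6 and 74.8 FPKM in TSPAN8-high, against 307, 195 and 208 FPKM in TSPAN8-low (log2 difference -1.37, SE 0.23, adjusted p = 0.00793). Its level in all ID4-EGFP+ libraries was 201, 129.6 and 143 FPKM, so within every replicate number it lay between those of the fractions, with the order opposite to that of Optn. Ykt6 and Snap29, which encode SNARE proteins that fuse autophagosomes with lysosomes, fell with it, Ykt6 to 24.03 ± 2.09 FPKM in TSPAN8-high against 36.8 ± 1.93 in TSPAN8-low (adjusted p = 0.0290) and Snap29 to 10.2 ± 1.44 against 16.0 ± 0.0958 (adjusted p = 0.0350). Srxn1, an antioxidant gene regulated by NRF2, fell to 1.91 ± 0.104 FPKM in TSPAN8-high against 3.45 ± 0.847 in TSPAN8-low (adjusted p = 0.0467). Leaving out any 1 of the 9 libraries left the call of Bnip3 in place (adjusted p at most 0.0386), while each of the other 6 calls was lost without 6 to 8 of them, with adjusted p up to 0.175. The calls of Wdfy3, Epg5 and Usp15 were also lost under the 3 other scalings of the libraries (adjusted p from 0.0583 to 0.0859).

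**Figure D4:**
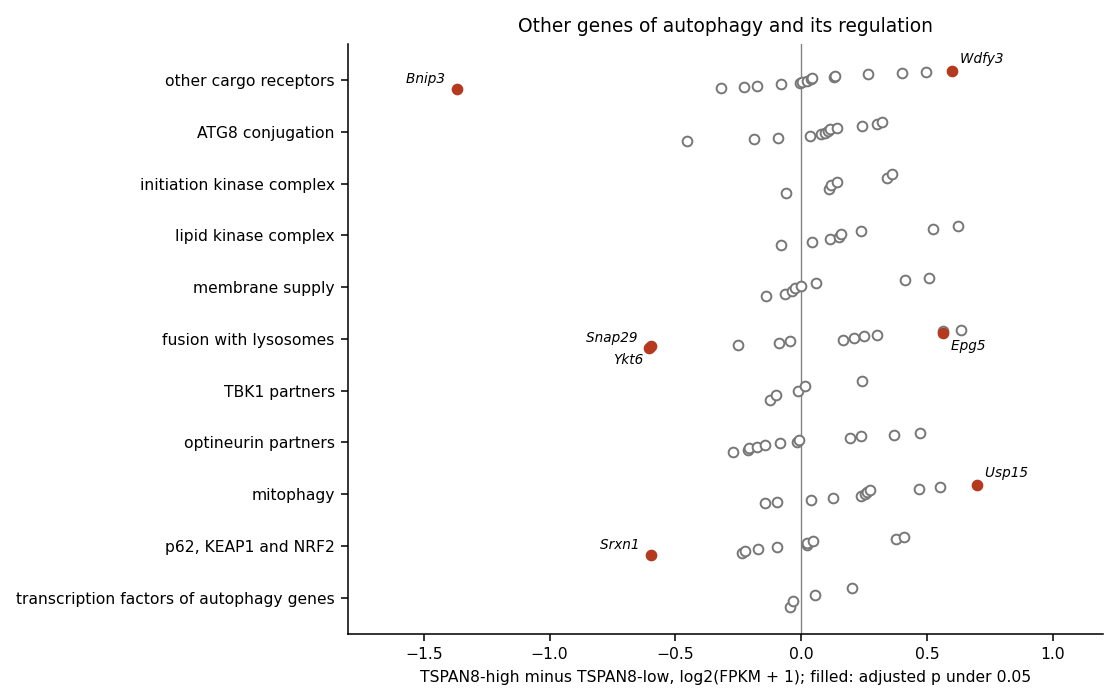
Log2 difference, TSPAN8-high minus TSPAN8-low on the log2(FPKM + 1) scale (horizontal axis), of the tested genes of 11 lists of autophagy and its regulation (rows). Each point is 1 gene, and filled points passed an adjusted p under 0.05 by limma. The 7 named genes passed, with Bnip3 the lowest at -1.37.

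The direct partners of the 10 genes are described next. Of all 11142 tested genes, 2448 had an unadjusted p under 0.05 by limma in TSPAN8-high against TSPAN8-low, and 5.56% were called. Few or 0 calls in lists of this size are therefore not read as a result about their genes. Of 12 tested optineurin partners, such as Rab8a, for a vesicle GTPase, and Myo6, for a myosin motor, 0 passed by limma (2 at an unadjusted p under 0.05, and Tnip1 alone, higher, with the block). Rab8a averaged 32.9 ± 5.63 FPKM in the TSPAN8-high group and 36.2 ± 4.14 FPKM in the TSPAN8-low group. Of 5 tested TBK1 partners 0 passed (0 at an unadjusted p under 0.05 and 0 with the block). The second TBK1-like kinase gene, Ikbke, averaged 0.0970 FPKM in TSPAN8-high against 0.0722 FPKM in TSPAN8-low, and Calcoco2, for the receptor NDP52, averaged 0.543 FPKM in TSPAN8-high against 0.369 FPKM in TSPAN8-low, so neither reached the minimum level for testing. Of 12 ATG8 conjugation genes 0 passed (1 at an unadjusted p under 0.05, and Atg4a, lower, with the block). Of 8 lipid kinase complex genes 0 passed (2 at an unadjusted p under 0.05), and Pik3c3, for the kinase itself, and Atg14, for the subunit that directs it to autophagosomes, rose with the block (log2 differences of 0.62 and 0.52, adjusted p = 0.0102 and 0.00711). In all, 14 of the 104 rose and 5 fell with the block, 18.3% against 19.1% of all genes (11.8% higher and 7.34% lower). Fam134a, Nufip1, Wipi1, Vps11, Vps16, Rhot2 and Vdac1 were among those that rose with the block only. In TSPAN8-high against all ID4-EGFP+, limma with the block called Bnip3 and Ykt6 lower (adjusted p = 0.00196 and 0.0489). Neither was called there without the block.

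Genes whose profile over the 9 libraries lay closest to that of Optn were ranked by the root mean square difference of their centred log2(FPKM + 1) values, as a description with no test. The closest 8 were Gfpt2 (0.165 log2 units), Trf (0.197), Sphk1 (0.200), Fst (0.236), Jdp2 (0.246), Mmp9 (0.271), B3gnt1 (0.275) and S100a6 (0.284). Gfpt2 encodes an enzyme of hexosamine synthesis, Trf encodes transferrin, Sphk1 a sphingosine kinase, Fst the activin-binding protein follistatin and Mmp9 a matrix protease. Gfpt2 stood at 36.2, 50.6 and 66.5 FPKM in TSPAN8-high, at 8.91, 17.6 and 20.1 FPKM in TSPAN8-low and at 24.9, 34.2 and 36.5 FPKM in all ID4-EGFP+ libraries. Of the other 9 genes of the set, Calcoco1 was nearest to Optn at 0.475 (rank 232 of the tested genes). Sqstm1 followed at 0.568 (rank 835), and Map1lc3b was farthest at 0.793 (rank 6221). For scale, a gene with the same level in all 9 libraries would lie at 0.765, and the median of the tested genes was 0.773.

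Markers of another testis cell type moved in the same direction as Optn. Sertoli cells are the somatic cells that surround spermatogonia. Of the 15 Sertoli marker genes with an entry, 5 were tested, and all 5 had estimates above 0 in TSPAN8-high minus TSPAN8-low (median log2 difference 1.62). Trf rose by limma (1.62, adjusted p = 0.0108), and Clu, Cst12, Inha and Aard, with log2 differences of 2.00, 1.81, 1.61 and 1.24 and adjusted p from 0.191 to 0.313, passed with the block as Trf did. The other 10 markers, Sox9, Wt1 and Amh among them, averaged at most 0.777 FPKM in any group. The summed level of the 15 was 92.3, 109.7 and 219.9 FPKM in TSPAN8-high, 19.2, 31.3 and 111 FPKM in TSPAN8-low and 28.6, 60.1 and 107 FPKM in all ID4-EGFP+ libraries. Within every replicate number the sum of TSPAN8-high exceeded that of TSPAN8-low, as the Optn level did. Without Trf, a sum added after the values were seen, it was 64.1, 62.9 and 168 FPKM in TSPAN8-high, 10.9, 14.03 and 97.1 FPKM in TSPAN8-low and 13.4, 33.1 and 81.5 FPKM in all ID4-EGFP+ libraries, again higher in TSPAN8-high within every number. In each group replicate 3 had the highest sum of the 15, while Optn was highest in replicate 3 of TSPAN8-high and in replicate 2 of the other groups. The part of Sertoli cell RNA in the Optn difference was not tested.

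**Figure D5:**
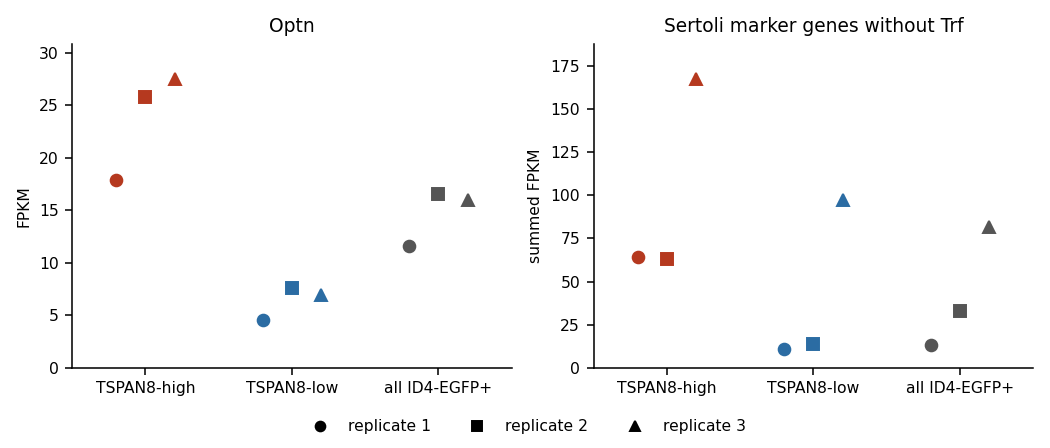
Optn FPKM (left) and the summed FPKM of the 14 Sertoli cell markers other than Trf (right) in each library (vertical axes, from 0), with TSPAN8-high, TSPAN8-low and all ID4-EGFP+ libraries from left to right and symbol shape for the replicate number. Within every replicate number both are higher in TSPAN8-high, and in the marker sum TSPAN8-low replicate 3 (97.1 FPKM) overlaps the TSPAN8-high range (62.9 to 168 FPKM), while Optn does not overlap.

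Markers of other somatic cell types had smaller sums, some of which also followed the fractions. The 6 leukocyte markers summed to 12.5, 18.1 and 29.2 FPKM in TSPAN8-high, 5.13, 8.63 and 12.7 FPKM in TSPAN8-low and 7.54, 9.03 and 11.7 FPKM in all ID4-EGFP+ libraries, higher in TSPAN8-high within every replicate number. Cd68, the only tested one, did not pass by limma (log2 difference 0.59, adjusted p = 0.192) and rose with the block, while Csf1r was listed at 0 in TSPAN8-low and all ID4-EGFP+ libraries. The 5 peritubular myoid markers summed to 3.66, 3.57 and 7.63 FPKM in TSPAN8-high against 1.55, 2.44 and 3.73 FPKM in TSPAN8-low, also higher within every number, and 0 of 2 tested passed by limma (1 at an unadjusted p under 0.05 and 0 with the block). The 6 Leydig cell markers summed to at most 6.48 FPKM (in TSPAN8-low replicate 3) and the 5 endothelial markers to at most 1.67 FPKM in any library. Neither sum was higher in TSPAN8-high within every number. Red blood cell markers summed to 0.156, 0.0516 and 0.441 FPKM in TSPAN8-high against 0.276, 0.833 and 0.460 FPKM in TSPAN8-low, lower within every number. The part of these cells in the values of the 10 genes was not tested.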

How the data were processed

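RNA of 9 libraries was measured by paired-end sequencing. Per the labels' protocols, the SMART-Seq v4 kit, which does not mark strand, was used for cDNA and Nextera XT for libraries. The authors deposited FPKM values, made per the submitters' processing notes with TopHat2 2.0.12, Bowtie2 2.2.3.0 and Cufflinks on mm9, after FastQC. Neither the version of Cufflinks nor the annotation is given in the sources used here. A table of normalized signal, also deposited, served only as an alternative. Columns were matched to samples by population and sample number. Per the labels, each group has 3 replicate preparations of cells. The labels do not tie them to separate litters, and p-values therefore reflect variation between preparations, which may be technical.

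Entries that shared a symbol (768 entries under 262 symbols) were dropped, and testing was limited to the 11142 genes that reached 1 FPKM in 3 or more of the 9 libraries. A limma 3.58.1 model (R 4.3.3, eBayes with a trend on the mean, two-sided tests) was fitted to log2(FPKM + 1) of the 9 libraries without further scaling, and p-values were adjusted by Benjamini-Hochberg over all tested genes. On this scale the change of weakly expressed genes is understated. Libraries of different groups with the same replicate number had correlated deviations from the means of their groups (Pearson's r across genes of 0.26 to 0.48 over 9 pairs, against -0.46 to 0.28 over 18 other pairs), so the numbers were taken to pair the samples, from the data. A second fit with the replicate number as a block is given beside many of the results, and not every call that it changed is named. All printed SEs, the calls for which the block is not named and the fits that left out libraries are without it. They therefore include variation between replicate numbers. The SE without and with the block was 0.227 and 0.104 for Bnip3, and 0.140 and 0.142 for Epg5. Read depth is unknown. Relative depth was estimated as the most common ratio among the lowest values, which 9.24% to 19.1% of them shared.

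The 10 genes and all gene lists were chosen with earlier results of these data known. Named genes were the 10, the list genes past the threshold in TSPAN8-high against TSPAN8-low (at most 4 per list and direction), the 8 genes most like Optn, Tspan8 and Id4. Genes named from the fit with the block, and genes named for their level or role, were chosen after their values were seen. Exon overlaps came from GENCODE M21 and near copies from blastn 2.17.0 against its transcripts. The alternatives were a pseudocount of 0.1, no filter on low values, a common median, quantile normalization, the authors' normalized table, the block, leaving out libraries or replicate numbers, and a fit of the groups compared only. Tables were made in Python 3.11.15 and plots with matplotlib 3.10.9.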

Additional observations from a re-analysis of the deposited data

How the results depend on the processing

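The log2 difference of Optn, TSPAN8-high minus TSPAN8-low, lay between 1.56 and 1.94 under all 19 alternatives. Some of these could not move it from 1.75: no filter, the block, the 2 groups only, and leaving out an all ID4-EGFP+ library. Optn was also chosen for this difference. The count of genes called in that comparison (619) was 293 with no filter on low values, which tests more genes, and 2131 with the replicate block, and ranged from 10 to 633 over the fits without a library or a replicate number. Leaving out TSPAN8-high replicate 2 or 3 gave 185 or 284, leaving out TSPAN8-low replicate 1 or 2 gave 364 or 288, and 372, 10 and 90 were called without replicates 1, 2 and 3 of all groups. Of the 619 calls 380 were higher and 239 lower, against 255 and 360 with a common median, 250 and 300 with quantile normalization and 223 and 307 with the authors' normalized table. For TSPAN8-high against all ID4-EGFP+ (16) the count was 0 with no filter, 7 with the authors' normalized table, 344 with the replicate block and 27 with the 2 groups compared only, and 0 to 111 over the fits that left out libraries. These were 1, 3 and 66 for TSPAN8-high replicates 1 to 3, 111, 6 and 10 for TSPAN8-low replicates 1 to 3, 0 for all ID4-EGFP+ replicates 1 and 3, and 0, 6 and 0 for replicates 1, 2 and 3 of all groups. For TSPAN8-low against all ID4-EGFP+ (0 called by limma, 910 at an unadjusted p under 0.05) it was 5 with the block and 0 to 1 over the fits that left out libraries. Of the 104 other autophagy genes (7 called), 2 were called with no filter, 4 with a common median, 4 with quantile normalization, 4 with the authors' normalized table, 19 with the block and 3 with the 2 groups compared only, and 0 to 7 when libraries were left out. Bnip3 lost its call without replicate 2 or replicate 3 of all groups (adjusted p = 0.0913 and 0.0692 by limma). The cause of these shifts was not tested. With 3 preparations per group and unknown depth, differences as small as those of Tbk1 and Nbr1 could not be told from the spread.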

Other observations

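Genes of the KEAP1 and NRF2 branch, which p62 feeds, and of the transcription factors known to drive autophagy genes were examined as further groups. Of 10 tested KEAP1 and NRF2 genes, 1 fell by limma in TSPAN8-high against TSPAN8-low (Srxn1) and 0 rose. Hmox1, for heme oxygenase, stood at 137 ± 20.3 FPKM in TSPAN8-high against 106 ± 18.3 FPKM in TSPAN8-low (log2 difference 0.38, adjusted p = 0.202), and Nqo1, for a quinone reductase, stood at 10.7 ± 0.477 and 7.84 ± 1.29 FPKM (0.41, adjusted p = 0.154, 0.0341 with the block). Nfe2l2, which encodes NRF2, averaged 45.4 ± 1.63 FPKM in TSPAN8-high against 48.7 ± 4.55 FPKM in TSPAN8-low. Of 4 tested transcription factor genes of the autophagy programme 0 passed by limma (0 at an unadjusted p under 0.05 and 0 with the block). Over all genes 2448 of 11142 had such an unadjusted p, so 0 of 4 is not read as a result about these factors. Tfeb was under the minimum level for testing, at 0.791 ± 0.237 FPKM in TSPAN8-high, 0.329 ± 0.184 in TSPAN8-low and 0.784 ± 0.362 in all ID4-EGFP+ cells.

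Bnip3l, for the mitophagy receptor NIX, stood at 295 ± 29.5 FPKM in TSPAN8-high against 295 ± 5.86 FPKM in TSPAN8-low (log2 difference -0.01, adjusted p = 0.982), beside the fall of Bnip3. Whether the differences of these related genes differ from each other was not tested.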
